A study of Homo sapiens with 28 samples.

Results

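HepG2 cells, an established line from a human liver tumour, were examined for 10 genes that encode enzymes of serine, glycine and asparagine synthesis and of folate-bound one-carbon metabolism. The genes were chosen by name, with earlier results of these data known: PHGDH, PSAT1, PSPH, SHMT1, SHMT2, MTHFD2, MTHFD1L, ALDH1L2, ASNS and GLDC. All 10 were found among the 63140 gene identifiers of the count table, and all 10 were among the 18849 genes expressed highly enough to be tested. Poly(A) RNA was sequenced in 28 libraries, 7 groups of 4, which come from 4 independent experiments per the labels. The series is titled for a network of imprinted genes in fatty liver disease, and these enzymes are not named there.

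All groups shared 24 h in serum-free medium before an exposure of 24 h. CdCl2 (cadmium chloride, a toxic metal salt) was given at 0.5 µM and had water as its vehicle. TCDD (a dioxin that binds the aryl hydrocarbon receptor) was given at 100 nM, PFOS (a perfluorinated surfactant) at 10 µM, BPA (bisphenol A, a component of plastics) at 75 µM and TBTCl (tributyltin chloride, an organotin biocide) at 0.1 µM. These 4 compounds had DMSO as their vehicle, so their comparisons share the same DMSO libraries. Per the labels, DMSO did not exceed 0.1% and cells were used up to passage 17. Each compound is represented by a single dose and a single time, and all cells are of a single line.

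Serine is made in the cytosol from the glycolytic intermediate 3-phosphoglycerate, in consecutive steps by PHGDH, PSAT1 and PSPH. SHMT1 in the cytosol and SHMT2 in mitochondria split serine into glycine and a carbon unit that is carried by tetrahydrofolate. In mitochondria MTHFD2 and MTHFD1L pass that unit on towards formate, which leaves for the cytosol and feeds purine and thymidylate synthesis, while ALDH1L2 oxidises it to carbon dioxide. GLDC is the decarboxylase of the mitochondrial glycine cleavage system, which breaks glycine down, and ASNS makes asparagine from aspartate and glutamine. Many of these genes are known targets of ATF4, a transcription factor made in greater amounts when amino acids run short or proteins misfold.

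Promoter sequence is shown first because ATF4 is known to act through short sequence words. RefSeq promoter windows of GRCh38.p14, from 250 bases before to 50 after a start site, were at hand for 7 of the 10 genes, in 11 windows. They were searched on both strands for TGATGNAA (the C/EBP-ATF response element, CARE), TGACGTCA (the cyclic AMP response element) and CACGTG (the E-box). The CARE was found in 1 of 2 windows of ASNS and in 3 of 4 windows of MTHFD1L, which overlap and hold the same match, as they do for the E-box. For comparison, the CARE was present in 3.62% of all 35116 promoter windows and in a window of 4.46% of 27305 genes, the cyclic AMP response element in 1.85% and 2.25%, and the E-box in 7.26% and 8.77%. The next 3 lines show these matches in the direction of the gene, with the matched word in capitals.
ASNS, CARE: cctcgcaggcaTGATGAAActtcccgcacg
MTHFD1L, CARE: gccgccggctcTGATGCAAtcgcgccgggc
MTHFD1L, E-box: acgcccggctcCACGTGcgcagccggccgc
The ASNS stretch lies at chr7:97872458-97872487 on the minus strand, with the word 68 bases before a RefSeq start site. In GENCODE release 29 this word falls in an untranslated exon of 3 of 17 ASNS transcripts. The MTHFD1L CARE stretch lies at chr6:150866346-150866375 on the plus strand, and its word is 129 bases before 1 RefSeq start site, 90 before another and 24 after another. The MTHFD1L E-box stretch lies at chr6:150866321-150866350. Of 12 MTHFD1L transcripts in GENCODE, the CARE word was in an exon of 1, in an intron of 4 and outside the other 7.

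None of the 3 words was found in the windows of PHGDH, PSAT1, MTHFD2, SHMT1 or GLDC. The bases before SHMT1 and GLDC are shown because these are the 2 genes that were lower with BPA, and those before PSAT1 because it was higher. Each stretch is taken from the RefSeq window, ends at the GENCODE gene or the RefSeq start site, whichever comes first, and runs in the direction of the gene, with no capitals because no word matched. The absence of a match says only that these letters are not in these windows.
SHMT1: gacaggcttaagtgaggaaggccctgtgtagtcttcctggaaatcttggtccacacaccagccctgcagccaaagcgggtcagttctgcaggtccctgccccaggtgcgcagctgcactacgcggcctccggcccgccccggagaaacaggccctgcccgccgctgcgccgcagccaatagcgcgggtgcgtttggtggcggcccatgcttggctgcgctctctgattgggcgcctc
GLDC: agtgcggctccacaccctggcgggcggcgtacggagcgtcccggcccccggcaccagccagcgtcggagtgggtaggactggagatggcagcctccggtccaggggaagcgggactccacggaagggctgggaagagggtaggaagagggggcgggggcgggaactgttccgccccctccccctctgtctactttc
PSAT1: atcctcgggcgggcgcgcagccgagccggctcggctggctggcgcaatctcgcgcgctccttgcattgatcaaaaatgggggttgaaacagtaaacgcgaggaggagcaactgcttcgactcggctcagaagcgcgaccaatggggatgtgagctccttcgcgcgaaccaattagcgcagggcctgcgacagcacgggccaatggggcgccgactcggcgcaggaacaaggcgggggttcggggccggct
The SHMT1 stretch is chr17:18363564-18363800 on the minus strand. The GLDC stretch is chr9:6645784-6645979 on the minus strand. The PSAT1 stretch is chr9:78296875-78297124 on the plus strand.

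Total counts ran from 28.9 M to 66.0 M per library with a median of 46.5 M, so that a floor of 3 counts stood at 0.0435 to 0.104 CPM, the unit of level used here, which relates counts to library size. Such floors cover counting error only. The liver label was checked with 10 hepatocyte markers, which were all expressed in every library, with a summed level of 27220 to 74270 CPM. Among 12 markers of other cell types, 7 had counts in every library: ACTA2 at 20.7 to 54.9 CPM, PDGFRB at 1.61 to 23.3, CD14 at 0.683 to 17.0, PECAM1 at 2.37 to 6.46, and COL1A1, CDH5 and VWF at up to 3.46. The leukocyte gene PTPRC had no count in 23 of 28 libraries, the collagen gene COL1A2 none in 27 and LUM none in 14.

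In cells given DMSO, the levels per kilobase of exon put PSAT1 highest at 165 CPM per kb, then SHMT2 at 83.8, MTHFD2 at 49.3, PSPH at 34.4, PHGDH at 32.8 and GLDC at 22.6. MTHFD1L had 16.7 CPM per kb, SHMT1 8.49 and ALDH1L2 0.904. The order depends on the lengths used, the union of all annotated exons, such as 9217 bases for PHGDH and 2188 for PSAT1. Without division by length the DMSO means were 405.4 CPM for SHMT2, 361.7 for PSAT1, 302.5 for PHGDH and 94.99 for PSPH. The mitochondrial SHMT2 mRNA was above that of SHMT1, at 61.82 CPM, on either scale before any compound. ASNS was listed at 0.329 CPM per kb, but its level cannot be set beside the others. Of its 4455 exon bases, 1985 (44.6%) are shared on the same strand with the transcript AC079781.5 in GENCODE. The sources used here do not say how reads in shared exons were counted. All ASNS values below are therefore uncertain in level, and they rest on 25 to 267 counts per library.

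All 10 genes were called as different between BPA and DMSO. With BPA, 8 genes were higher and 2 lower at an adjusted p under 0.05 (edgeR quasi-likelihood test, Benjamini-Hochberg over 18849 genes). The PSPH call was near the threshold (adjusted p 0.0436) and was lost under both other scalings and in other alternatives given below. The background was large: 35.0% of all tested genes were called with BPA, 17.3% higher and 17.6% lower. In all 10 genes the 4 BPA libraries did not overlap the 4 DMSO libraries, which held for 37.2% of tested genes. The median log2 fold change was 0.87 over the 10 genes, against -0.02 over all tested genes. Because the genes were chosen with earlier results of these data known, these shares and medians are descriptions. The genes that were higher were the serine synthesis enzymes, the mitochondrial folate enzymes and ASNS, and the genes that were lower were the cytosolic SHMT1 and the glycine-degrading GLDC.

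**Figure D1:**
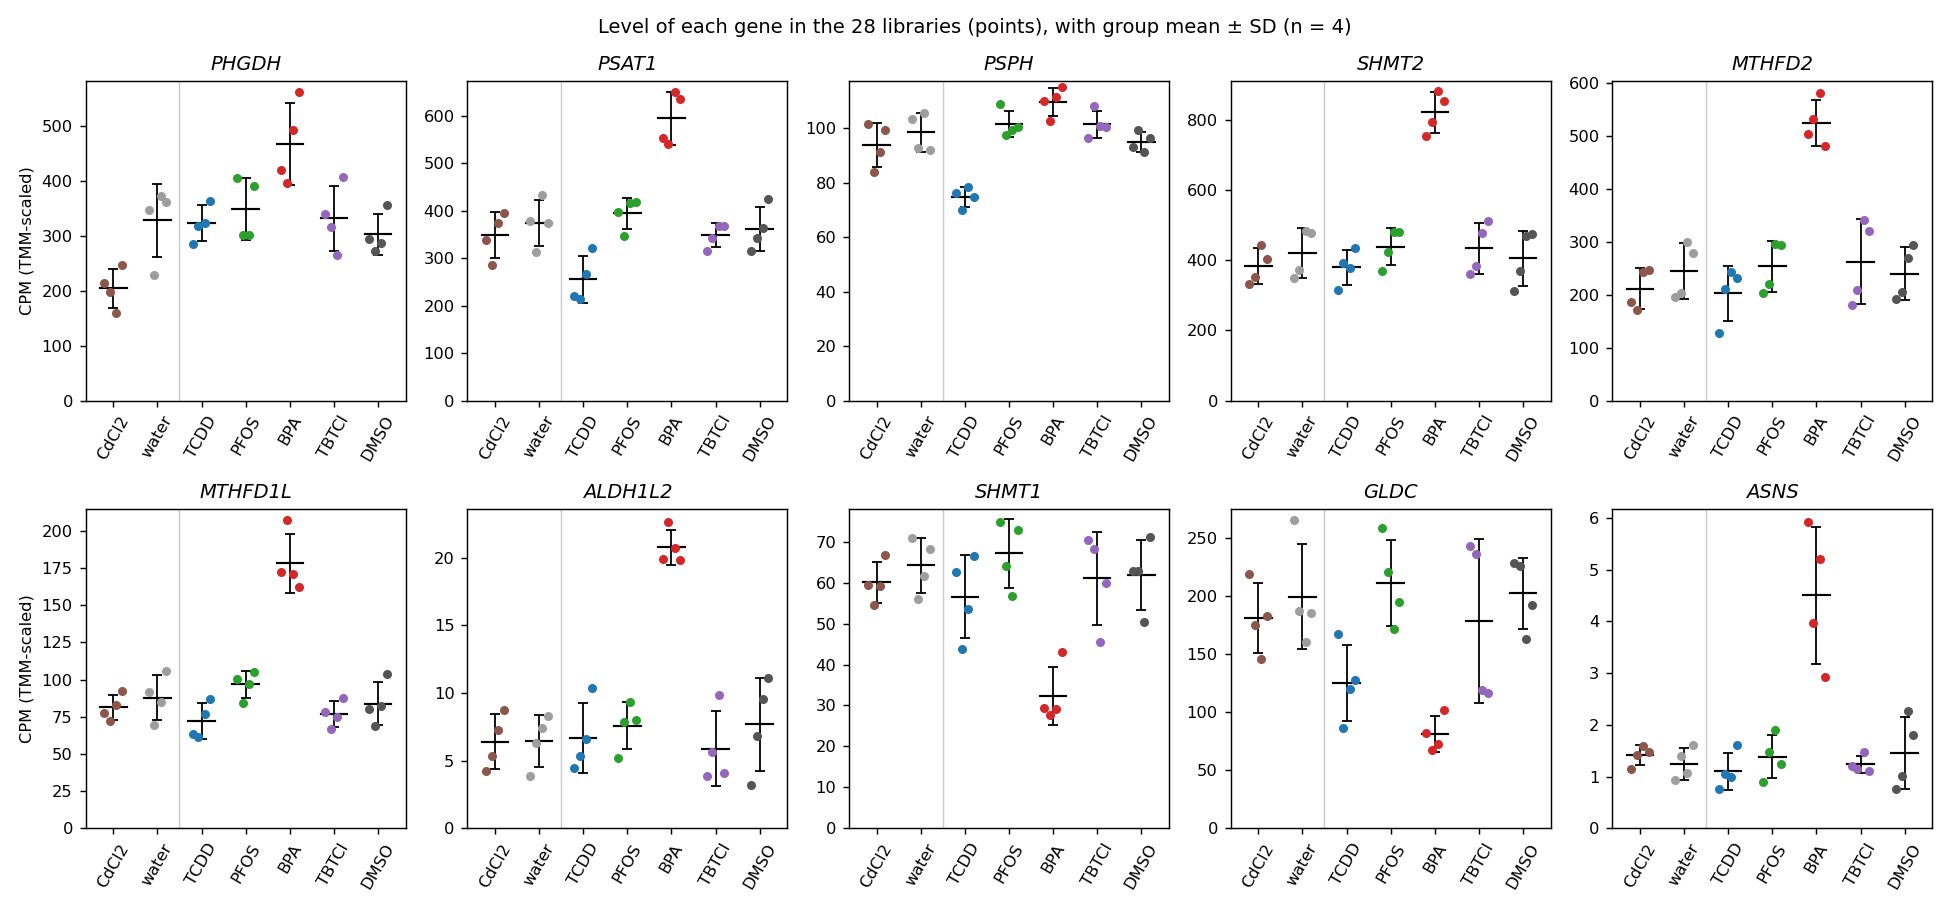
Level of each of the 10 genes in CPM (TMM-scaled), each panel with its own axis from 0; points are the 28 libraries, by group on the x axis, and bars are group means ± SD of 4. The BPA points lie above all 24 other libraries for SHMT2, MTHFD2, MTHFD1L, ALDH1L2, PSAT1 and ASNS, and below them for SHMT1.

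PHGDH, the first enzyme of serine synthesis (chromosome 1, 119648411 to 119744226 on the plus strand), had 419, 396, 492 and 562 CPM in BPA replicates 1 to 4, against 295, 273, 286 and 356 CPM in DMSO replicates. Every BPA library was above every DMSO library. The log2 fold change was 0.63 ± 0.16 (SE; adjusted p 0.00447), a 1.54-fold difference. Mean levels in the other groups were 323 ± 32.6 CPM with TCDD, 349 ± 56.3 with PFOS and 332 ± 59.4 with TBTCl (SD, n = 4 each). The lowest BPA library, at 396 CPM, was below the highest TBTCl library, at 408 CPM.

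PSAT1, the aminotransferase of the pathway (chromosome 9, 78297143 to 78330093, plus strand), had 553, 541, 650 and 636 CPM with BPA, against 316, 343, 363 and 425 CPM with DMSO. The BPA libraries were above all 24 other libraries, whose highest was 432 CPM in water. This was a log2 fold change of 0.72 ± 0.13 (adjusted p 0.000193), or 1.64-fold. Means were 394 ± 32.9 CPM with PFOS and 348 ± 25.0 CPM with TBTCl.

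PSPH, the phosphatase that releases serine (chromosome 7, 56011051 to 56051604, minus strand), moved least. It had 110, 103, 111 and 115 CPM with BPA, against 93.1, 99.2, 91.2 and 96.5 CPM with DMSO. The groups did not overlap, but the lowest BPA library and the highest DMSO library lay close together. The log2 fold change was 0.21 ± 0.08 (adjusted p 0.0436). That call was lost with other scalings, with adjusted p 0.438 on upper-quartile factors and 0.507 on library size alone. It was also lost with no filter on low counts (0.462), when only these 2 groups were fitted (0.0599), with water in place of DMSO (0.139), and when any single library other than BPA replicate 2 was left out (adjusted p 0.0654 to 0.105). The 3 serine synthesis genes together summed to 1040 to 1313 CPM with BPA, against 704.1 to 877.4 CPM with DMSO.

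SHMT2, the mitochondrial hydroxymethyltransferase (chromosome 12, 57229327 to 57234935, plus strand), had 754, 794, 882 and 854 CPM with BPA, against 313, 368, 468 and 473 CPM with DMSO. Each BPA library exceeded all 24 others, which ran up to 512 CPM. On the log2 scale the difference was 1.02 ± 0.15 (adjusted p 1.51e-05), or 2.02-fold. The other groups lay close together, with means of 379 ± 49.1 CPM for TCDD, 438 ± 52.6 for PFOS, 433 ± 73.4 for TBTCl, 383 ± 51.2 for CdCl2 and 420 ± 69.9 for water.

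SHMT1, the cytosolic enzyme of the same reaction (chromosome 17, 18327860 to 18363563, minus strand), went the other way. Its levels were 29.5, 27.7, 29.0 and 43.0 CPM with BPA, against 62.8, 62.9, 50.5 and 71.1 CPM with DMSO. BPA replicate 4 stood above the other 3 BPA libraries but still below the lowest of the 24 other libraries, at 43.8 CPM with TCDD. The log2 fold change was -0.94 ± 0.16 (adjusted p 5.78e-05), so that DMSO was 1.91-fold higher. Without BPA replicate 4 it was -1.11. In GENCODE, SHMT1 shares 2.69% of its exon bases with SMCR8 on the opposite strand, and whether the counting used strand is not stated in the sources used here. Opposite-strand sharing was larger for MTHFD2, at 27.2% with SLC4A5 and 6.06% with AC006030.1, and for SHMT2, at 8.83% with AC137834.2. Over the 28 libraries SLC4A5 averaged 0.474 CPM, AC006030.1 3.5 and AC137834.2 0.367. ALDH1L2 shares 1.7% with C12orf45, which averaged 11.2 CPM beside 8.78 CPM for ALDH1L2.

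Per kilobase of exon, SHMT2 exceeded SHMT1 by a ratio of 29.9 to 45.7 in the BPA libraries, against 7.50 to 13.9 in the DMSO libraries. Mean ratios were 39.3 ± 6.9 with BPA and 10.1 ± 2.8 with DMSO (SD, n = 4 each). The size of each ratio depends on the exon lengths used, 4838 bases for SHMT2 and 7281 for SHMT1. The comparison between groups does not. In the 24 libraries other than BPA the ratio did not exceed 15.9, the value of TBTCl replicate 3. The balance of the 2 mRNAs therefore differed between BPA and DMSO beyond the spread of libraries, with the mitochondrial form further ahead under BPA.

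MTHFD2, the mitochondrial methylenetetrahydrofolate dehydrogenase and cyclohydrolase (chromosome 2, 74198562 to 74217565, plus strand), had 504, 532, 582 and 481 CPM with BPA, against 192, 205, 269 and 294 CPM with DMSO. The lowest BPA library, at 481 CPM, was above the highest of the 24 others, at 341 CPM with TBTCl. BPA exceeded DMSO by a log2 fold change of 1.13 ± 0.22 (adjusted p 0.000259), or 2.18-fold. The DMSO libraries were themselves spread, with replicates 3 and 4 above replicates 1 and 2.

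MTHFD1L, the mitochondrial synthetase that releases formate (chromosome 6, 150865549 to 151101887, plus strand), had 172, 208, 171 and 162 CPM with BPA, against 80.0, 69.0, 82.2 and 104 CPM with DMSO. No library of another group exceeded 106 CPM. In edgeR the log2 fold change was 1.09 ± 0.14 (adjusted p 1.97e-06), the smallest adjusted p of the 10 genes. Its CARE is the one shown above, in 3 of its 4 promoter windows.

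ALDH1L2, which oxidises 10-formyltetrahydrofolate in mitochondria (chromosome 12, 105019784 to 105084577, minus strand), was low in all groups. It had 19.9, 22.6, 20.7 and 19.8 CPM with BPA, against 3.23, 6.85, 9.57 and 11.1 CPM with DMSO. BPA libraries lay close together and above all 24 others, whereas DMSO libraries were spread widely. Its log2 fold change was 1.43 ± 0.33 (adjusted p 0.0017), or 2.69-fold.

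The cytosolic partners of these enzymes showed 2 different pictures. MTHFD1, the cytosolic trifunctional folate enzyme, had 122 ± 10.1 CPM with BPA and 146 ± 20.4 CPM with DMSO (log2 fold change -0.26, adjusted p 0.358). The MTHFD2 to MTHFD1 ratio per kilobase was 6.92 to 8.98 with BPA, against 2.33 to 4.43 with DMSO. In TBTCl libraries it spread from 1.99 to 9.01, where replicates 3 and 4 had the low MTHFD1 levels of 99.6 and 68.4 CPM. These replicates also had more MTHFD2, at 341 and 320 CPM, against 181 and 210 CPM in TBTCl replicates 1 and 2. TBTCl replicate 4, at 9.01, was above every BPA library in this ratio. ALDH1L1, the cytosolic counterpart of ALDH1L2, rose with BPA to 128 ± 25.6 CPM, against 40.3 ± 10.5 CPM with DMSO (log2 fold change 1.66, adjusted p 1.33e-05). The ALDH1L2 to ALDH1L1 ratio was accordingly 0.220 to 0.292 with BPA, within the 0.156 to 0.592 of DMSO.

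**Figure D2:**
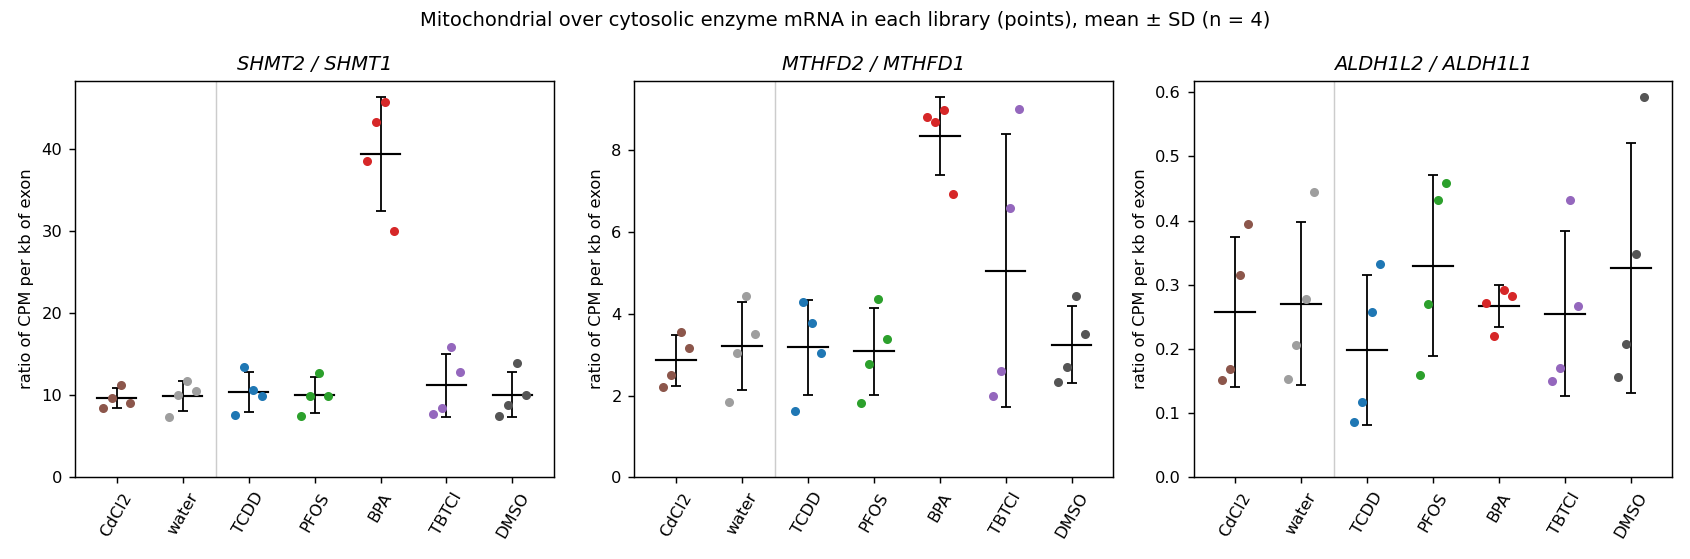
Ratio of the mitochondrial to the cytosolic enzyme mRNA, each as CPM per kb of exon, in the 28 libraries (points) by group, with mean ± SD of 4 as bars and every y axis from 0. The SHMT2 to SHMT1 ratio is 29.9 to 45.7 with BPA and at most 15.9 elsewhere, whereas the ALDH1L2 to ALDH1L1 ratio of BPA lies within the range of DMSO.

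ASNS, asparagine synthetase (chromosome 7, 97852118 to 97872542, minus strand), had the largest fold change of the 10 genes with BPA. It had 5.92, 3.98, 5.20 and 2.93 CPM with BPA, against 0.762, 1.02, 2.26 and 1.81 CPM with DMSO. Every BPA library was above all 24 others, which did not exceed 2.26 CPM. Its log2 fold change was 1.60 ± 0.29 (adjusted p 0.000149), or 3.04-fold. AC079781.5, which shares exon bases with ASNS, had 0.276 ± 0.108 CPM with BPA and 0.574 ± 0.096 CPM with DMSO (log2 fold change -1.04 ± 0.39, adjusted p 0.0373). The part of the shared exons in either change was not tested.

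GLDC, the glycine decarboxylase (chromosome 9, 6532464 to 6645783, minus strand), fell most. It had 81.7, 67.2, 72.7 and 102 CPM with BPA, against 228, 226, 163 and 192 CPM with DMSO. The highest BPA library, at 102 CPM, was below the lowest DMSO library, at 163 CPM. Its log2 fold change was -1.32 ± 0.23 (adjusted p 0.000104), so that DMSO was 2.50-fold higher. The other 3 proteins of the glycine cleavage system were not called, with a median log2 fold change of -0.15. Of these DLD had 87.7 ± 2.6 CPM with BPA and 97.4 ± 7.3 CPM with DMSO, whereas GCSH was at 1.02 CPM with BPA and 1.12 CPM with DMSO. AMT, at 0.130 CPM with BPA and 0.181 CPM with DMSO, was close to the floor, so that a change in it was hardly detectable at this depth. TBTCl libraries split in GLDC, at 243, 236, 119 and 116 CPM.

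**Figure D3:**
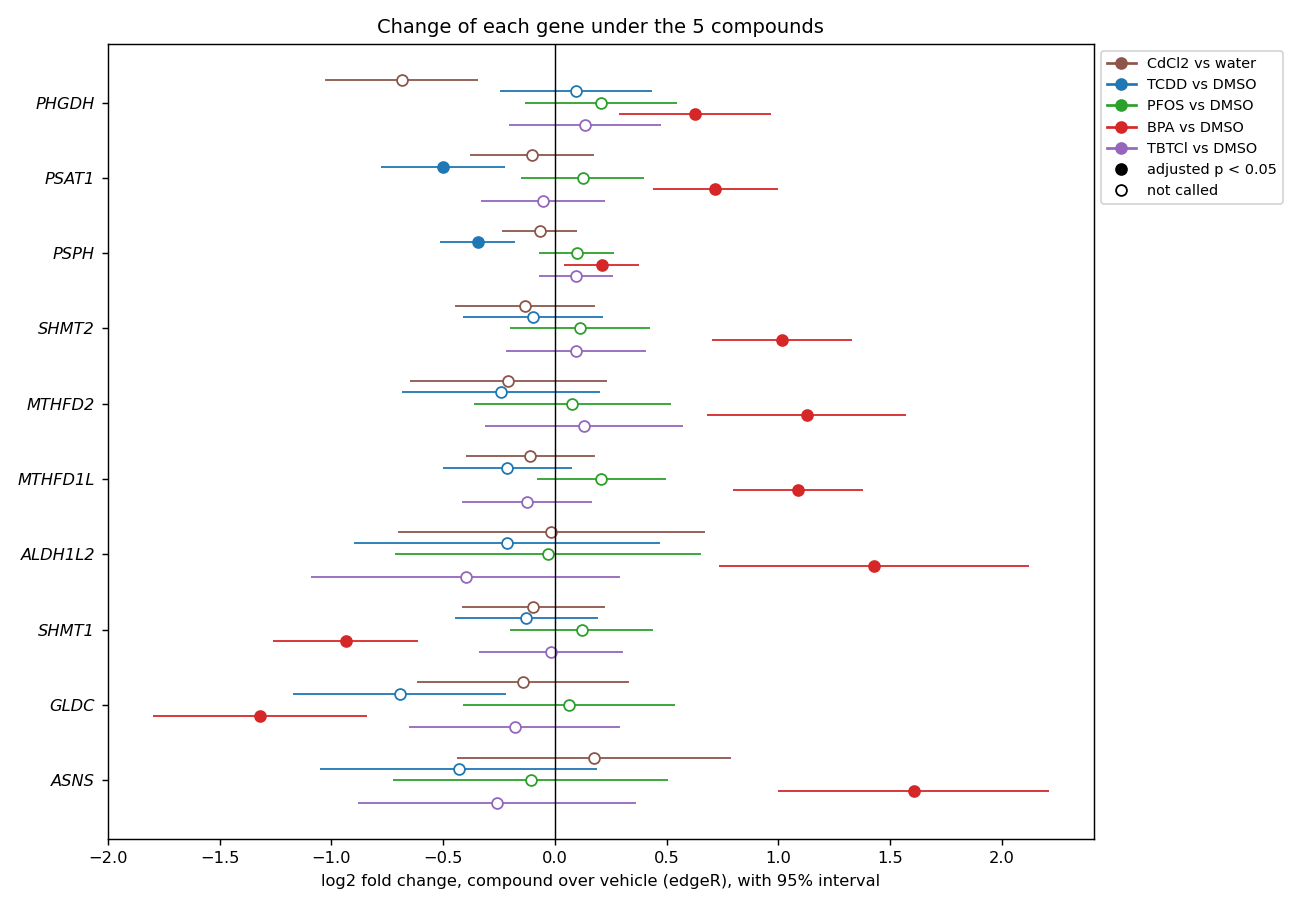
Log2 fold change of each gene, compound over vehicle, from edgeR on the x axis with 95% intervals as lines; colours mark the 5 compounds, filled points adjusted p under 0.05 and open points not called. With BPA 8 genes lie right and 2 left of 0, all filled, while with TCDD PSAT1 and PSPH are the filled points.

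With TCDD the genes of the middle and last steps of serine synthesis were lower than with DMSO. Of the 10 genes, 2 were called lower and 0 higher, where 9.25% of all tested genes were called, 6.45% higher and 2.80% lower. PSAT1 had 221, 214, 267 and 320 CPM with TCDD, against 316, 343, 363 and 425 CPM with DMSO. TCDD replicate 4 lay above DMSO replicate 1, so the groups overlapped, and the log2 fold change was -0.50 ± 0.13 (adjusted p 0.0145). The PSAT1 call was lost without DMSO replicate 4 (adjusted p 0.0682), TCDD replicate 1 (0.0546) or TCDD replicate 2 (0.0783), and when only these 2 groups were fitted (0.0587).

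PSPH had 76.3, 69.9, 78.3 and 74.6 CPM with TCDD, against 93.1, 99.2, 91.2 and 96.5 CPM with DMSO. All TCDD libraries were below all DMSO libraries, which held for 1 of the 10 genes and for 15.3% of tested genes in either direction. The log2 fold change was -0.35 ± 0.08 (adjusted p 0.00455), and with no filter on low counts adjusted p was 0.0978. GLDC had 167, 86.7, 119 and 127 CPM with TCDD, against 228, 226, 163 and 192 CPM with DMSO. TCDD replicate 1 overlapped the DMSO range while the other 3 lay below it, and the log2 fold change was -0.69 ± 0.23 with an adjusted p of 0.0562. That value passed 0.05 in several alternatives, among them DESeq2 (adjusted p 0.0400) and upper-quartile factors (0.0402). PHGDH, the first enzyme, averaged 323 ± 32.6 CPM with TCDD and 302 ± 36.9 CPM with DMSO (log2 fold change 0.09 ± 0.16, adjusted p 0.811).

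The difference between BPA and TCDD was tested directly. All 10 genes were called, 8 higher and 2 lower with BPA than with TCDD, where 38.3% of all tested genes were called, 17.8% higher and 20.4% lower. The libraries did not overlap for 9 of the 10, all but GLDC, and for 40.2% of tested genes. ASNS differed most, at 4.51 ± 1.32 CPM with BPA and 1.10 ± 0.360 CPM with TCDD (log2 fold change 2.03 ± 0.30, adjusted p 7.24e-06). PSAT1 differed by 1.22 ± 0.14 on the log2 scale (adjusted p 1.09e-07), and GLDC by -0.63 ± 0.23 (adjusted p 0.0316) with overlapping libraries. GLDC was not called without BPA replicate 1, 2 or 3 or without TCDD replicate 1 or 4 (adjusted p 0.0625 to 0.144), and PHGDH was not called without BPA replicate 4 (0.0523). BPA was given at 75 µM and TCDD at 100 nM, so these comparisons are of the doses used.

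BPA against TBTCl gave 9 called genes, 7 higher and 2 lower with BPA, where 34.8% of all tested genes were called, 16.7% higher and 18.1% lower. The libraries did not overlap for 8 of the 10 and for 27.7% of tested genes. PSPH was the exception, with 110 ± 5.16 CPM for BPA and 102 ± 4.94 CPM for TBTCl (log2 fold change 0.11, 95% interval -0.05 to 0.28, adjusted p 0.281). PHGDH was called with overlapping libraries (log2 fold change 0.49 ± 0.16, adjusted p 0.0215), and the call was lost on upper-quartile factors (adjusted p 0.0745), when only these 2 groups were fitted (0.0705) and without BPA replicate 3 or 4 or TBTCl replicate 2 or 3 (0.0503 to 0.0825). TCDD against TBTCl gave 2 called genes, both lower with TCDD, where 12.8% of all tested genes were called, 7.26% higher and 5.58% lower. The libraries did not overlap for 1 of the 10, PSPH, and for 13.2% of tested genes. The called genes were PSPH (log2 fold change -0.44 ± 0.08, adjusted p 0.000313) and PSAT1 (-0.45 ± 0.13, adjusted p 0.0252). Neither was called when only these 2 groups were fitted (adjusted p 0.0587 for PSPH and 0.167 for PSAT1). PSAT1 was also not called with library size alone (0.0729), with no filter (0.0770) or without TBTCl replicate 3, TCDD replicate 1 or TCDD replicate 2 (0.0549 to 0.0971).

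In the main fit, which ignores pairing by replicate number, CdCl2 gave no call among the 10 genes relative to water. In that fit 0.0212% of all tested genes were called, all of them higher. The libraries overlapped for all 10 and did not overlap for 2.45% of tested genes. PHGDH had the smallest p of the 10. It had 213, 198, 160 and 246 CPM with CdCl2, against 348, 229, 373 and 362 CPM with water. CdCl2 replicate 4 lay above water replicate 2, and the other 3 CdCl2 libraries were below every water library. The log2 fold change was -0.68 ± 0.16, with an unadjusted p of 0.000305 that ranked 16 of all tested genes and an adjusted p of 0.359. When equal replicate numbers were treated as pairs (a block in the fit), the log2 fold change was -0.69 with an adjusted p of 0.0171, and PHGDH was then the 1 gene of the 10 that was called. DESeq2 gave an adjusted p of 0.0703. At an unadjusted p under 0.05, 940 tested genes and 1 of the 10 genes passed, and DESeq2 called 15 genes in the whole table. The other 9 genes had log2 fold changes from -0.21 (MTHFD2) to 0.17 (ASNS).

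With PFOS and with TBTCl, 0 of the 10 genes were called relative to DMSO. Of all tested genes 0.0159% were called with PFOS, all of them lower, and 0.143% with TBTCl, 0.106% higher and 0.0371% lower. All 10 genes had overlapping libraries in both comparisons, while 4.94% of tested genes did not overlap with PFOS and 4.87% with TBTCl. For PFOS the log2 fold changes ran from -0.11 (ASNS) to 0.21 (MTHFD1L), and for TBTCl from -0.40 (ALDH1L2) to 0.13 (PHGDH). With edgeR, 1043 tested genes passed an unadjusted p under 0.05 for PFOS and 2937 for TBTCl, and none of the 10 genes did in either. DESeq2 called 109 genes for PFOS and 251 for TBTCl in the whole table. With the replicate block 84 genes were called for PFOS and 179 for TBTCl, and again 0 of the 10. The 95% interval for SHMT2 was -0.20 to 0.43 with PFOS and -0.22 to 0.41 with TBTCl, both of which end below the 1.02 seen with BPA. For ASNS and ALDH1L2 the intervals were wide, at -0.72 to 0.51 and -0.71 to 0.66 with PFOS.

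DMSO against water gave 0 calls among the 10 genes, where 0% of all tested genes were called by edgeR and 1 gene by DESeq2. The libraries overlapped for all 10, and did not for 1.72% of tested genes. At an unadjusted p under 0.05, 431 tested genes passed and 0 of the 10 genes did. Mean SHMT2 was 405 ± 78.5 CPM in DMSO and 420 ± 69.9 CPM in water, and mean GLDC was 202 ± 30.7 CPM in DMSO and 199 ± 45.4 CPM in water.

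Other folate genes were called in both directions with BPA. Of 16, 5 were higher, 3 lower and 8 not called, and the share lower was near the 17.6% of all tested genes (17.3% were higher). TYMS, which makes thymidylate, had 62.8 ± 12.0 CPM with BPA and 152 ± 36.8 CPM with DMSO (log2 fold change -1.27, adjusted p 8.74e-05). Beside ALDH1L1, the genes that rose included the purine synthesis enzymes GART (log2 fold change 0.63) and ATIC (0.38). With TCDD, 1 of the 16 was higher, GGH at 107 ± 17.8 CPM with TCDD and 69.6 ± 7.6 CPM with DMSO, and 1 lower, GART, where 6.45% of all tested genes were higher and 2.80% lower.

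Genes that use or move serine and glycine were also mixed with BPA. Of 11 tested genes of breakdown and transport, 4 rose, 2 fell and 5 were not called, where 17.3% of all tested genes were higher and 17.6% lower, so that the share that fell was at the background. The amino acid exchanger SLC1A5 had 773 ± 25.7 CPM with BPA and 392 ± 69.3 CPM with DMSO (log2 fold change 0.98, adjusted p 3.54e-06). The serine transporter SLC1A4 rose by 0.91 on the log2 scale and the serine dehydratase-like gene SDSL by 1.51. In the methionine cycle and transsulfuration, which turns serine and homocysteine into cysteine, 4 of 13 genes rose and 1 fell, a share called that is near the 35.0% of all tested genes. CTH had 48.8 ± 7.8 CPM with BPA and 20.5 ± 6.3 CPM with DMSO (log2 fold change 1.25), CBS rose by 0.84 and the glycine methyltransferase GNMT fell by 1.66.

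With TCDD the same 2 lists had other members called. MAT1A, which makes S-adenosylmethionine, had 346 ± 100 CPM with TCDD and 149 ± 25.7 CPM with DMSO (log2 fold change 1.22, adjusted p 0.000174). AGXT, the peroxisomal alanine-glyoxylate aminotransferase, which forms glycine, rose by 1.25, and GLYCTK, glycerate kinase, by 0.44, while GNMT fell by 1.32 and GCAT by 0.54. The counts with TCDD were 2 higher and 1 lower of 11 for breakdown and transport, and 1 higher and 1 lower of 13 for the methionine list, where 9.25% of all tested genes were called, 6.45% higher and 2.80% lower.

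Around ASNS, 11 genes of asparagine, aspartate, glutamine and proline metabolism were tested, of which 5 rose, 3 fell and 3 were not called with BPA, beside 17.3% of all tested genes higher and 17.6% lower. GOT1, the cytosolic aspartate aminotransferase, had 271 ± 16.9 CPM with BPA and 155 ± 28.0 CPM with DMSO, and the asparaginyl-tRNA synthetase NARS1 rose by 0.66 on the log2 scale. ALDH18A1, which starts proline synthesis, had 167 ± 36.2 CPM with BPA and 431 ± 32.4 CPM with DMSO (log2 fold change -1.37, adjusted p 1.25e-07). With TCDD 1 gene of this list was higher and 3 lower, beside 6.45% and 2.80% of all tested genes. GOT1 had 79.5 ± 7.8 CPM with TCDD and 155 ± 28.0 CPM with DMSO (log2 fold change -0.97, adjusted p 1.89e-06). GOT1 was thus called in opposite directions with BPA and TCDD.

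ATF4 and its known targets rose with BPA. Of 20 genes tested, 18 were higher, 0 lower and 2 not called, where 17.3% of all tested genes were higher. The median log2 fold change of the list was 1.49. This list too was chosen with earlier results of these data known, so these values are descriptions. ATF4 itself had 824 ± 79.4 CPM with BPA and 473 ± 89.7 CPM with DMSO (log2 fold change 0.80, adjusted p 0.00171). TRIB3 had 890 ± 107 CPM with BPA and 278 ± 94.0 CPM with DMSO, DDIT3 (CHOP) 69.4 ± 17.3 CPM with BPA and 15.1 ± 2.4 CPM with DMSO, and GDF15 rose by 2.75 on the log2 scale. CHAC1 was low, at 1.04 ± 0.30 CPM with BPA and 0.357 ± 0.213 CPM with DMSO (adjusted p 0.0362). Of the 4 kinases that phosphorylate eIF2alpha, EIF2AK4 (GCN2) fell by 0.79 and the other 3 were not called. With BPA 35.0% of all tested genes were called and 17.6% were lower, so this count is not particular to the kinases.

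With TCDD the ATF4 list gave 5 higher, 0 lower and 15 not called, and its median log2 fold change was -0.01, where 6.45% of all tested genes were higher. ATF4 had 499 ± 110 CPM with TCDD and 473 ± 89.7 CPM with DMSO (log2 fold change 0.08, adjusted p 0.868), and TRIB3 had 210 ± 51.6 CPM with TCDD and 278 ± 94.0 CPM with DMSO (-0.40, adjusted p 0.304). Those higher were NUPR1, PPP1R15A, SLC3A2, ATF3 and GDF15, and none of the 10 synthesis genes rose with them. CdCl2, PFOS and TBTCl gave 0 calls in the ATF4, folate, methionine, serine and asparagine lists. Of all tested genes 0.0212%, 0.0159% and 0.143% were called in these comparisons, so hardly a call was to be seen in any list.

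**Figure D4:**
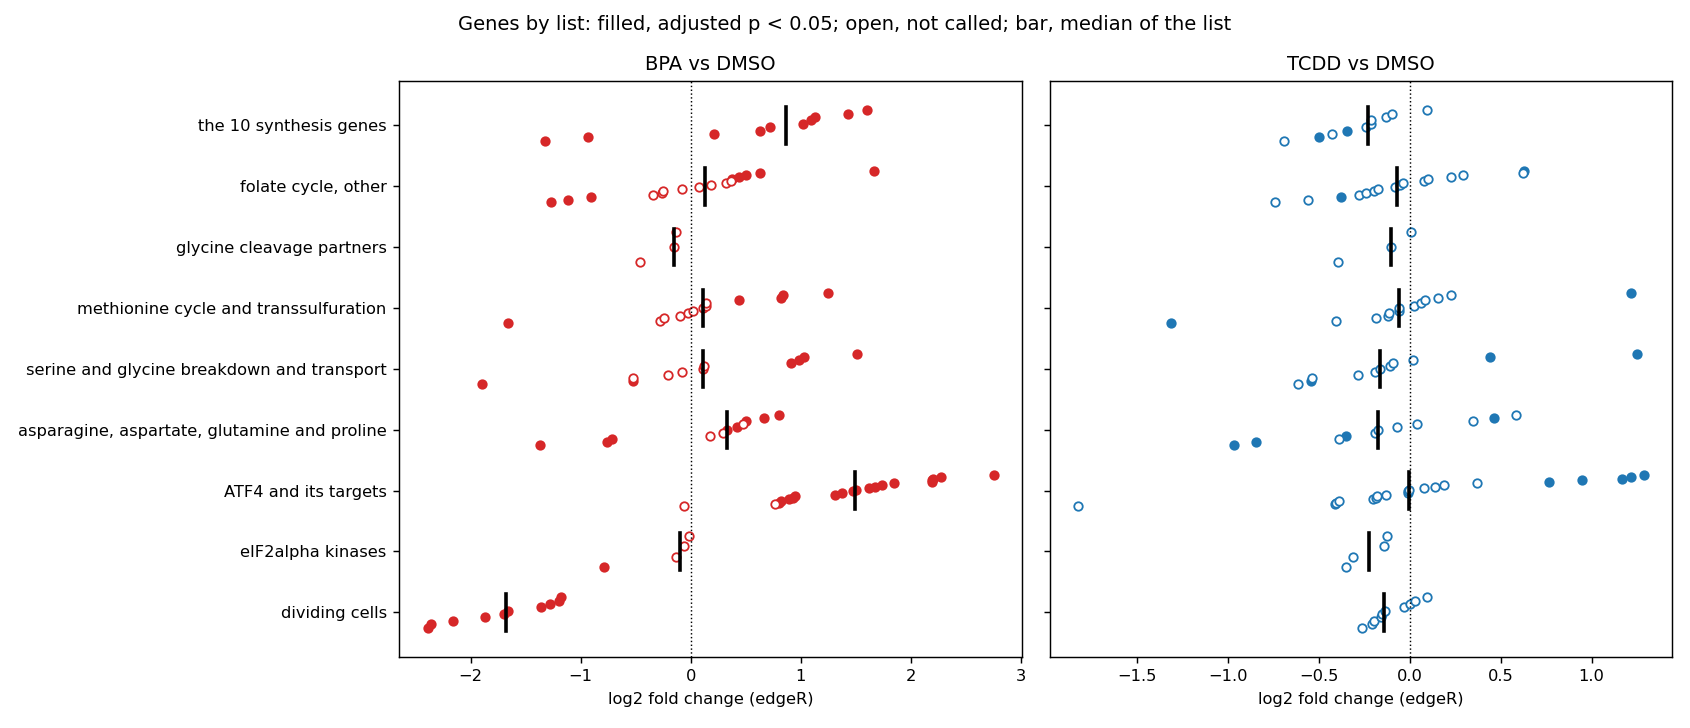
Log2 fold changes (edgeR) of the genes of each list with BPA (left panel) and TCDD (right panel), each relative to DMSO, with a separate x axis per panel; filled points have adjusted p under 0.05, open points were not called and black bars mark list medians. With BPA the ATF4 list has a median of 1.49 and the dividing-cell list one of -1.68.

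Genes of dividing cells moved with BPA as well. All 10 were lower, where 17.6% of all tested genes were, with a median log2 fold change of -1.68, and they summed to 281.6 to 536.5 CPM with BPA, against 777.9 to 1783 CPM with DMSO. With TCDD 0 of these 10 were called. Of the 10 hepatocyte markers 4 fell, 1 rose and 5 were not called with BPA, where 35.0% of all tested genes were called. They summed to 27220 to 43320 CPM with BPA, against 40790 to 74270 CPM with DMSO. Of the 12 markers of other cell types, 8 were tested, with 1 higher (the monocyte gene CD14, 10.9 CPM with BPA and 1.45 CPM with DMSO), 1 lower (the endothelial PECAM1) and 6 not called, a share called below that of all tested genes. They summed to 51.2 to 70.3 CPM with BPA, against 61.1 to 67.0 CPM with DMSO. With TCDD 1 was higher, LUM, at 1.01 CPM with TCDD and 0.0116 CPM with DMSO, which is under the floor, and 1 lower, PDGFRB. With TBTCl CD14 was higher, at 4.89 CPM with TBTCl and 1.45 CPM with DMSO. The part of these changes in the results for the synthesis genes was not tested, and in such bulk RNA fewer cells of a kind and less RNA per cell cannot be told apart.

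Scaling bears on the BPA comparison. TMM gave 3268 genes higher and 3320 lower with BPA, upper-quartile factors 2239 higher and 4345 lower, and library size alone 2169 higher and 4321 lower. Those scalings moved the median log2 fold change of all genes by -0.13 and -0.12. Of the 10 genes, 7 stayed higher and 2 lower under either, PSPH being the gene lost.

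For 3 of the 10 genes the transcripts with the most similar pattern were listed among 10436 candidates, by the root mean square difference of the 5 compound-over-vehicle log2 fold changes. SLC1A5 was closest to SHMT2, at 0.0396, followed by the mitochondrial chaperone genes HSPA9 at 0.0628 and DNAJA3 at 0.0644, and by FAM86DP at 0.0793. Closest to ASNS were TMEM268 at 0.115, ERN1 (the stress sensor IRE1) at 0.125, the cystine transporter SLC7A11 at 0.135 and SPIRE1 at 0.156. Closest to PHGDH were AGK at 0.0881, NAAA at 0.0920, NLE1 at 0.101 and DUS1L at 0.107. The PHGDH neighbours had CdCl2 changes of -0.83, -0.63, -0.67 and -0.58 in the order given, beside -0.68 for PHGDH. CdCl2 was among the 5 comparisons used to choose them, so this likeness follows from the choice. Of the 5 comparisons 4 share the DMSO libraries, so these distances are descriptions.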

How the data were processed

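Poly(A) RNA of HepG2 cells was sequenced from directional libraries, per the labels, in 28 samples of 7 groups. The authors deposited integer read counts per gene. The submitters' processing notes name the build GRCh38 and the tools fastp, STAR, HTSeq and DESeq2. Their versions, the gene annotation and whether reads were counted by strand are not stated in the sources used here. Symbols were at hand for 62541 of 63140 identifiers. The last entry of the table was left out because it ends without a line break.

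The count test was the quasi-likelihood test of edgeR 4.0.16 under R 4.3.3, with TMM factors, in a single fit of 7 group means with 21 residual degrees of freedom. Genes were kept by filterByExpr (minimum count 10). Calls needed an adjusted p under 0.05 (Benjamini-Hochberg, 18849 genes). Levels are TMM-scaled counts relative to library size (CPM), as mean ± SD of 4 libraries, and SE is the size of the log2 fold change divided by the square root of F. Lengths, the union of all exons of a gene, and coordinates came from GENCODE release 29. The annotation used for counting is not stated, so these lengths and shared exon bases may differ from those of the genes as counted. DESeq2 1.42.0 was the other tool. The procedure was tested on simulated data with changes balanced in direction, the same spread for every gene and no effect of replicate number. That simulation cannot speak on scaling or pairing in the real libraries.

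The members and lists were chosen with earlier results of these data known. Named were the 10 members, up to 3 called genes of each other list with the smallest adjusted p, a few folate and stress genes in every case, and the 4 nearest genes of ASNS, PHGDH and SHMT2. ATIC and GART with BPA, ATF3 and GDF15 with TCDD, the cell markers beyond the rule and AC079781.5 were named after their values were seen. No label ties a replicate number to the same experiment across groups. Deviations of equally numbered libraries from their group means were therefore correlated. Correlations ran from 0.123 to 0.540 (CdCl2, water), 0.173 to 0.269 (BPA, DMSO), 0.425 to 0.593 (PFOS, DMSO), 0.249 to 0.528 (TBTCl, DMSO), 0.181 to 0.627 (DMSO, water) and 0.146 to 0.324 (BPA, TBTCl). All of these passed 0.1, so the numbers were judged to pair libraries in these comparisons. The main fit ignores that pairing all the same, and its SE, p-values and calls are unpaired. The replicate block was fitted only as an alternative, and its results are given where named. Comparisons with TCDD held negative values (-0.212 to 0.439 with DMSO) and were not taken as paired. Should experiments share material, p-values measure only the spread between these libraries. Promoter sequences came from RefSeq GRCh38.p14.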

Additional observations from a re-analysis of the deposited data

Results flagged for a closer look

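SHMT1 in BPA replicate 4 stood apart from its group. It had 43.0 CPM, while the other 3 BPA libraries had 27.7 to 29.5 CPM, and the gap made up 0.882 of the group's whole range. It was the 1 flag among 70 pairs of a gene and a group, where chance flags about 1 in 20 groups of this size. Without that library SHMT1 was still called lower with BPA than with DMSO (log2 fold change -1.11, adjusted p 8.78e-06).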

How the results depend on the processing

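None of 1300 values of the 10 genes, over the 9 comparisons and their alternatives, changed direction after a call; 1255 kept their side of the threshold, 36 lost it and 9 gained it. Of the counts of called genes, CdCl2 against water was 0 and became 1 (PHGDH) with the replicate block, and TCDD against TBTCl was 2 and became 1 with library size alone, 1 with no filter on low counts and 0 with only the groups compared; the cause was not tested. Leaving out a library gave 9 to 10 for BPA against DMSO, 9 to 10 for BPA against TCDD, 8 to 9 for BPA against TBTCl, 1 to 3 for TCDD against DMSO, 1 to 2 for TCDD against TBTCl and 0 for the other 4. The replicate block changed no call for BPA against DMSO (10 of 10). For TCDD, where the numbers did not pair libraries, it gave 3 with DMSO and 3 with TBTCl. Water in place of DMSO, chosen after seeing the data, gave 9 for BPA and 2 for TCDD.

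Over the whole table the count of called genes moved by over 1.5 times as follows. CdCl2 against water (4) ran from 0 with only the groups compared to 10 without CdCl2 replicate 4, 15 with DESeq2, 25 with no filter and 28 with the block. PFOS (3) ran from 0 to 23 with upper-quartile factors, 78 with no filter, 84 with the block and 109 with DESeq2. TBTCl (27) ran from 1 with only the groups compared to 111 with no filter, 160 without TBTCl replicate 2, 179 with the block and 251 with DESeq2. TCDD (1743) gave 2722 with the block, TCDD against TBTCl (2420) gave 919 and BPA against TBTCl (6564) gave 3460 with only the groups compared. ASNS had 25 to 267 counts per library, which limits the precision of its changes.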

Other observations

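In the 6 groups other than BPA, several members differed by replicate number. MTHFD2 had 128 to 204 CPM in libraries numbered 1, 170 to 221 in those numbered 2, 242 to 341 in those numbered 3 and 231 to 320 in those numbered 4. SHMT2 had 313 to 370 CPM in libraries numbered 1 and 404 to 512 CPM in those numbered 4. GLDC went the other way between numbers 1 and 3, with 167 to 265 CPM and 119 to 171 CPM. In the BPA libraries MTHFD2 was 504 and 532 CPM in numbers 1 and 2 and 582 and 481 CPM in numbers 3 and 4. This was noticed in the data and was not tested.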
